A study of Mus musculus with 8 samples.

Results

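Erythromyeloid progenitors (EMPs) are the cells of the yolk sac that give rise to red cells, megakaryocytes, granulocytes and macrophages. Among wells labelled as EMP cells, those that held a transcript of Gata1 and none of Spi1 are compared here with those that held a transcript of Spi1 and none of Gata1. A well was taken when it had at least 5000 transcripts, at least 3 of 7 blood genes (Fermt3, Plek, Lmo2, Rac2, Coro1a, Ptpn7 and Runx1) and no transcript of Cdh5 or Plvap, which mark endothelium. This gate held 82 of the 768 EMP wells and of the 1536 wells of the whole series. Of the 82, 20 were Gata1 wells, 21 were Spi1 wells, 12 held both transcripts and 29 held neither.

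Every cell was taken at embryonic day 9.5 from untreated C57BL/6N embryos of wild-type genotype, from the extraembryonic yolk sac, and carries the batch label A. The labels' protocols describe staining with antibodies to CD45 and CD11b and sorting of CD45+ cells into plates. The mCEL-Seq2 method tags transcripts at their 3′ end with a barcode of the well and a random identifier of the molecule. The 4 EMP libraries were run beside 4 libraries of A1 and A2 cells and, per the labels, were left out of the published work. Nothing in the labels says whether the libraries came from separate embryos. With library as a block, a p-value here measures only how the difference between classes varied among these libraries. That variation may be technical, and it includes differences among the few wells of each sum.

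GATA1 is the transcription factor that drives red cell, megakaryocyte and mast cell genes, and it acts with partners such as FOG-1 (Zfpm1), SCL (Tal1) and GATA2. PU.1, the product of Spi1, drives genes of granulocytes, monocytes and macrophages. The proteins bind each other and each limits the other's activity, and early progenitors are known to hold low levels of both before one prevails.

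In EMP libraries 1 to 4, 16, 23, 26 and 17 wells passed the gate. Gata1 wells numbered 2, 6, 8 and 4 and Spi1 wells 4, 4, 6 and 7, so every library held both classes. Wells with both numbered 2, 6, 3 and 1, which is 14.6% of gated wells (exact Clopper-Pearson 95% interval 7.80% to 24.2%, for counting error only). The product of the margins gives 12.9 wells with both, beside 12 seen, and the odds ratio of holding both was 2, 1.75, 0.5625 and 0.179 in libraries 1 to 4. The libraries thus lay on either side of 1, and no test was made of these small counts.

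**Figure D1:**
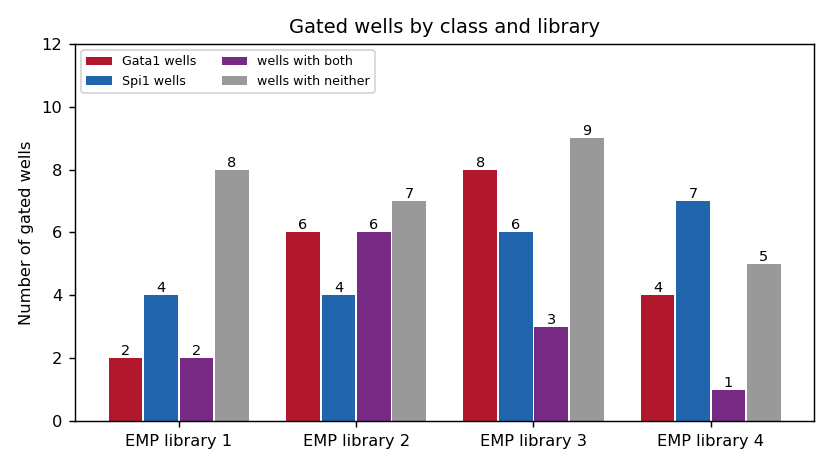
Number of gated wells (bars from 0) in each EMP library, by whether a Gata1 transcript, a Spi1 transcript, both or neither was found. Gata1 wells range from 2 to 8 per library, Spi1 wells from 4 to 7 and wells with both from 1 to 6.

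The classes rest on few transcripts, and they were chosen by them, so the following levels are a description. Gata1 wells held 1 to 11 Gata1 transcripts (median 4.5), and 4 of the 20 held a single one. Spi1 was sparser, with 1 to 8 transcripts in Spi1 wells (median 2), and 9 of the 21 held a single one. In wells with both, the median was 2.5 Gata1 transcripts and 1 Spi1 transcript, and 9 of the 12 held a single Spi1 transcript. As background, endoderm wells had at least 5000 transcripts, fewer than 3 of the 7 blood genes and at least 5 of 8 endoderm genes. These wells, which should lack both, held a Gata1 transcript in 7.20% and a Spi1 transcript in 4.40% of 250 wells. Their median was 22752 transcripts per well. They were picked for few blood genes, so low shares of other blood genes in them may partly follow from that choice. The median gated well held 31638 transcripts in the Gata1 class, 31432 in the Spi1 class, 30033 among wells with both and 31198 among wells with neither. These pooled medians were similar, but within library 1 the median was 41762 in Gata1 wells and 74786 in Spi1 wells, and in low-endoderm wells it was 23854 and 25852 over all libraries. With each well thinned to 5000 transcripts, 12 Gata1 wells, 12 Spi1 wells, 1 well with both and 57 with neither were counted. The count of wells with both therefore depends on depth.

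Few wells lay close to the limit on the total, and many lay at the limit on blood genes. The lowest total inside was 5915 transcripts and the highest outside, among 4 wells that passed the other limits, was 2876. Of wells with enough transcripts and no endothelial gene, 41 held 2 of the blood genes, 17 held 3, 3 held 4, 9 held 5, 12 held 6 and 41 held all 7. A further 171 wells passed the other limits but held a Cdh5 or Plvap transcript. Wells with 3 blood genes made up 3 of 20 Gata1 wells, 0 of 21 Spi1 wells and 14 of 29 wells with neither.

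The EMP label was checked against Kit, Cd34, Itga2b, Myb and Csf1r. Kit, the stem cell factor receptor, was found in 14 of 20 Gata1 wells and 17 of 21 Spi1 wells, beside 22% of endoderm wells. Itga2b, which encodes CD41, the early marker of yolk sac progenitors and of megakaryocytes, was found in 16 and 15 wells, and Myb in 12 and 15. Cd34 was found in 10 Gata1 wells and 19 Spi1 wells. Csf1r, the receptor that marks progenitors of the macrophage side, was found in 7 Gata1 wells and 13 Spi1 wells, beside 18.4% of endoderm wells. Ptprc, which encodes the sorted CD45, was found in only 2 of 20 Gata1 wells and 12 of 21 Spi1 wells, beside 4% of endoderm wells. Flt3, of later multipotent progenitors, was at 0 in every gated well.

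Transcripts of yolk sac endoderm were unevenly spread over the gated wells, so their levels are given before the results. Genes of the endoderm list, such as Apoa1, Ttr and Afp, took over 1% of transcripts in 8 of 20 Gata1 wells, 4 of 21 Spi1 wells, 2 of 12 wells with both and 18 of 29 wells with neither. Their median total was 53600 in Gata1 wells, beside 23854 in the other wells of the class, although in library 1 the single such well was shallower than the other. They supplied 64.4% of all transcripts of the Gata1 class and 51.2% of those of the Spi1 class. Among all gated wells the endoderm list was at 17278, 11116, 12432 and 25877 CPM (transcripts per 1000000 summed over a library and class) in Gata1 wells of libraries 1 to 4. In Spi1 wells it was at 15329, 5232, 19826 and 3190. The ranges overlapped, and all 17 endoderm genes tested had a positive log2 fold change (Gata1 wells minus Spi1 wells; median 1.06), none of them past the test. With the wells over 1% left out, 12 Gata1 wells (1, 4, 5 and 2 per library) and 17 Spi1 wells (2, 4, 4 and 7) remained, called low-endoderm wells below. There the list was at 1092 to 3412 CPM in Gata1 wells and 807 to 7141 in Spi1 wells, a difference that the selection itself acts on. The part of these transcripts in the results was not tested, and values are given with and without those wells.

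**Figure D2:**
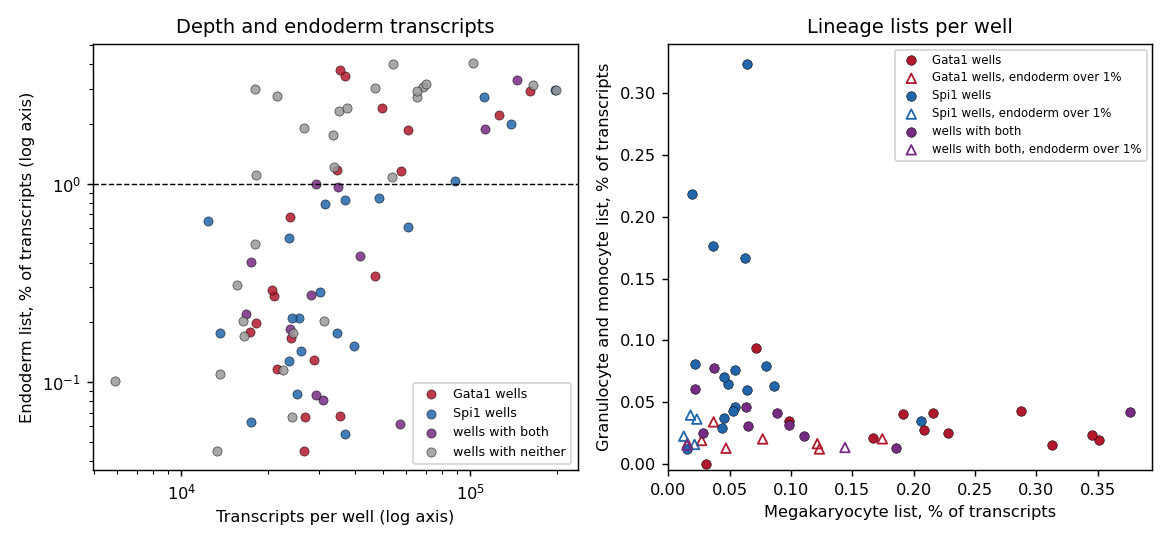
Left, the share of transcripts from the endoderm list against the transcripts of each of the 82 gated wells (both axes logarithmic, wells by class, dashed line at 1%). Right, the share from the granulocyte and monocyte list against that from the megakaryocyte list, per well of the Gata1 class, the Spi1 class and both; triangles mark wells over 1% endoderm. In low-endoderm wells the megakaryocyte share has a median of 0.212% in Gata1 wells and 0.0531% in Spi1 wells.

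Across all gated wells, no gene passed the test between the classes. Sums per library and class were compared with the quasi-likelihood test of edgeR with library as a block and Benjamini-Hochberg adjustment at 5%. A sum needed 3 wells, which left out the Gata1 sum of library 1, so 7 sums were fitted and libraries 2, 3 and 4 carried the comparison. Of 4188 genes tested, 0 were called (0%), and 100 (2.39%) had an unadjusted p under 0.05. The Wald test of DESeq2 called 0 as well, with 99 at an unadjusted p under 0.05. Without library 3, edgeR called 294 genes (245 higher and 49 lower in Gata1 wells), without library 4 it called 7, and without library 1 or 2 it called 0. The fits without library 2, 3 or 4 each had 1 residual degree of freedom. Without the 9 gated wells whose total exceeded 3 times their library's median, all of them over 1% endoderm, it called 191 (144 higher and 47 lower).

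In low-endoderm wells, genes of the megakaryocyte and GATA1 side such as F2r, Zfpm1 and Tal1 were higher in Gata1 wells, and Ly6e, Ikzf1 and Lcp1, which are known from leukocytes and their precursors, were lower. Of these, Tal1 and Ikzf1 were called by edgeR and not by DESeq2. With sums of 3 or more wells, the same minimum as above, edgeR called 55 of 2056 genes (2.68%; 26 higher, 1.26%, and 29 lower, 1.41%, with 267 genes, 13%, at an unadjusted p under 0.05), but only libraries 2 and 3 then hold both classes. That fit had 5 sums and 1 residual degree of freedom. Its p-values therefore rest largely on a spread estimated across genes, and small ones are weak support for any single gene. With sums of any number of wells, a setting chosen after the data were seen, all 4 libraries entered and 26 of 1689 genes were called (1.54%), 13 higher and 13 lower in Gata1 wells (0.77% each way). In that setting 195 genes (11.5%) had an unadjusted p under 0.05, DESeq2 called 11 genes, and the Gata1 sum of library 1 is a single well. The edgeR fit had 3 residual degrees of freedom, and 2 when 1 library was left out. Its p-values thus also lean on the spread estimated across genes. Of the 26 genes, 22 were also called in the 3-well setting and 7 by DESeq2. Among these 7 were F2r, Zfpm1, Rap1b, Hdgf, Ly6e and Lcp1. DESeq2 did not call Tal1 (DESeq2 adjusted p = 0.353), Ikzf1 (0.783), Nrros (0.4195), Cd44 (0.824) or Prkar2b (0.296). Without library 1, 2, 3 or 4 the count was 29, 12, 33 and 62. Called genes below come from these 26 unless the 3-well setting is named, other members of the gene lists are given beside them, and levels are CPM in libraries 1 to 4.

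Among partners of GATA1, Zfpm1, which encodes the cofactor FOG-1, stood at 257.5, 175, 267.5 and 227 CPM in Gata1 wells and at 0, 11.3, 9.73 and 38.3 in Spi1 wells. The classes did not overlap, and the log2 fold change was 3.67 ± 0.47 (SE; edgeR adjusted p = 1.03e-06). Tal1, the factor SCL that binds DNA beside GATA1, had 257.5, 384, 383 and 227 in Gata1 wells and 156, 67.95, 107 and 120 in Spi1 wells. It was higher in Gata1 wells of every library (1.51 ± 0.30; edgeR adjusted p = 0.00195, but 0.148 without library 2). Tal1 overlapped between the classes over all gated wells, since the Gata1 sum of library 4 was at 38.2, and its log2 fold change was 0.93 ± 0.77 (edgeR adjusted p = 0.9997).

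Promoters of Gata1, Tal1, Mpo and Prtn3 are shown as examples, to set the binding words of these 2 factors beside the values. Tal1 is among the 26 called genes, Mpo and Prtn3 are not, and Gata1 set the classes and was not tested. The windows are the 250 bases before the annotated start of the gene, from RefSeq on GRCm38.p6, 5′ to 3′ on the strand of the gene. Capitals mark AGATAA or TGATAA (bound by GATA factors) and GAGGAA (bound by PU.1) on either strand. The searched words do not overlap one another in these windows. The Gata1 window is chrX:7967911-7968160 (minus strand), that of Tal1, its first of 2 entries, is chr4:115056176-115056425 (plus), that of Mpo is chr11:87793534-87793783 (plus) and that of Prtn3 is chr10:79879417-79879666 (plus).
Gata1: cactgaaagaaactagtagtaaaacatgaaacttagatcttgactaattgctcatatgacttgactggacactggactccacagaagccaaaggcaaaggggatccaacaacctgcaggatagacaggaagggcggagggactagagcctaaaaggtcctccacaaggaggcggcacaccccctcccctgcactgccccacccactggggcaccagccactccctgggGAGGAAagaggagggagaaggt
Tal1: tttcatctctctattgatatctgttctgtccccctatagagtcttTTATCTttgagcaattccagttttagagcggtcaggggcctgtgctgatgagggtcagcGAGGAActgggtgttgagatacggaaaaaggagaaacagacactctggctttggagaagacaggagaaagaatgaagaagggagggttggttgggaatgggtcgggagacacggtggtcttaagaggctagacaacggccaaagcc
Mpo: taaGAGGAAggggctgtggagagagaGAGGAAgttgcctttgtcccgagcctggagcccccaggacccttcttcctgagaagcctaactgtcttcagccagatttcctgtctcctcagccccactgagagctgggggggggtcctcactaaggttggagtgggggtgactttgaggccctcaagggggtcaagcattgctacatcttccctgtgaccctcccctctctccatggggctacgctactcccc
Prtn3: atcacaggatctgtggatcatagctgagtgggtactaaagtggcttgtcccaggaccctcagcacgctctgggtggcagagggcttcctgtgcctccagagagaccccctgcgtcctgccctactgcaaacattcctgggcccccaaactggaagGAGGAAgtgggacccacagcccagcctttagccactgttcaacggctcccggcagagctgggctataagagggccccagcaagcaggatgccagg
The Gata1 window held 1 GAGGAA and no GATA word. That of Tal1 held 1 GATA word, read as TTATCT on this strand, and 1 GAGGAA, and its second window held neither. Mpo held 2 GAGGAA words and Prtn3 held 1. Of all 27025 genes with a window, 18.8% had a GATA word and 25.9% a GAGGAA, and of the 1300 genes with a window that were tested in low-endoderm wells, 10.6% and 25.15%. Among the called genes, each word was found in 2 of the 12 higher genes with a window and in 2 of the 10 lower genes, counts too small to set against those shares. A match here is a match of letters and shows no binding.

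Of the 16 partner factors listed, 10 passed the filter on low values in all gated wells, 0 were called, and their median log2 fold change was -0.07 beside 0.0073 over all genes. In low-endoderm wells 5 were tested and 2, Zfpm1 and Tal1, were called higher, at a median of 0.20 beside 0.0060 over all genes. Gata2, the factor that precedes GATA1 in progenitors, was at 107, 431, 195 and 25.2 CPM in Gata1 wells and at 0, 79.3, 48.6 and 47.8 in Spi1 wells. Library 4 thus ran the other way, and Gata2 passed only in the 3-well setting of libraries 2 and 3 (2.27 ± 0.43; edgeR adjusted p = 0.000338). In the Gata1 sums of libraries 1 and 4, which hold 1 and 2 low-endoderm wells, low CPM values rest on few transcripts. Gfi1b, a repressor needed for red cells and platelets, had 322, 198, 181 and 50.4 in Gata1 wells and 22.7 to 68.1 in Spi1 wells, with an overlap through library 4, and passed in the same setting only (2.05 ± 0.57; edgeR adjusted p = 0.0286). Nfe2 had 85.8 to 227 in Gata1 wells and 11.3 to 71.7 in Spi1 wells without an overlap, and did not pass (1.82 ± 0.68 in the 3-well setting; edgeR adjusted p = 0.184). Myb, Lmo4, Tcf12, Sp1, Kdm1a, Rcor1 and Cbfa2t3 overlapped between the classes.

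**Figure D3:**
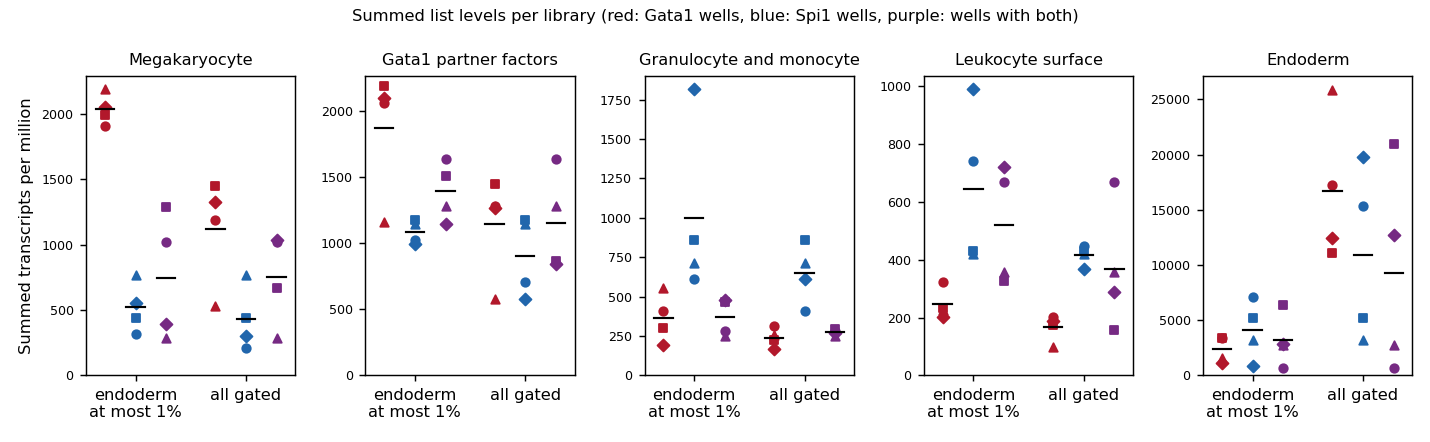
Summed CPM of 5 gene lists, 1 point per library (libraries 1 to 4 as circle, square, diamond and triangle; bars are means of 4 libraries), in low-endoderm wells and in all gated wells, for Gata1 wells, Spi1 wells and wells with both. The megakaryocyte list spans 1910 to 2194 in low-endoderm Gata1 wells and 320 to 765 in Spi1 wells, and the endoderm list is the one with the highest values.

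Megakaryocyte genes were more abundant in Gata1 wells of low endoderm share. The 19 genes of the list found in the tables summed to 1910, 1990, 2053 and 2194 CPM in Gata1 wells and to 320, 442, 554 and 765 in Spi1 wells. The libraries lay close together within Gata1 wells and apart from every Spi1 value. Over all gated wells the list had 1186, 1450, 1327 and 531 against 210, 442, 299 and 765, so the classes overlapped through library 4. F2r, the thrombin receptor PAR-1, led the difference, with 536.5, 826, 680 and 832 in Gata1 wells and 27.5, 33.98, 9.73 and 115 in Spi1 wells (3.82 ± 0.33; edgeR adjusted p = 7.16e-09). It kept its call without any one library and in DESeq2. Over all gated wells it was at 2.98 ± 0.98, did not overlap between the classes, and had an edgeR adjusted p of 0.9997.

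Other members of the list pointed the same way with less support. Of its genes, 4 were tested in low-endoderm wells, all with a positive log2 fold change (median 1.41), and F2r alone was called. Rab27b, which serves granule release in platelets, had 85.8, 116, 202.5 and 252 in Gata1 wells and 0, 11.3, 19.4 and 43.05 in Spi1 wells, and passed in the 3-well setting (3.39 ± 0.89; edgeR adjusted p = 0.0187). Itga2b had 257.5, 163, 260 and 75.7 against 36.6, 22.6, 97.3 and 90.9, overlapping through library 4, and passed in that setting too (1.87 ± 0.46; edgeR adjusted p = 0.0112). Itgb3, a chain of the platelet fibrinogen receptor, stood at 1.41 ± 0.54 (edgeR adjusted p = 0.323) and was at 0 in Spi1 wells of library 1. Treml1, a receptor of platelet granules, was too sparse to test, with 19 transcripts in Gata1 wells and 1 in Spi1 wells, which is 31.2 times as many per transcript sequenced (95% interval from counting alone, 4.96 to 1295). By wells, Treml1 was found in 13 of 20 Gata1 and 1 of 21 Spi1 wells, and Gp1bb, of the receptor for von Willebrand factor, in 12 and 2. With wells thinned to 5000 transcripts these were 3 and 0 for Treml1 and 5 and 1 for Gp1bb. Vwf, Gp6 and Ppbp were at 0 in all Gata1 wells, and Tubb1, the tubulin of mature platelets, was found in 1.

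Several called genes outside the lists are known from signalling and traffic in many cells. Rap1b, a small GTPase that activates integrins, had 2318, 1746, 1591 and 1564 in Gata1 wells and 403, 419, 545 and 670 in Spi1 wells (1.84 ± 0.17; edgeR adjusted p = 2.12e-07). Prkar2b, a regulatory subunit of protein kinase A, had 150, 233, 296 and 202 against 27.5, 45.3, 77.8 and 105 (1.79 ± 0.36; edgeR adjusted p = 0.00195, but 0.0984 without library 2). Hdgf, a growth factor bound to chromatin, had 1653, 1024, 1634 and 1387 against 659, 679.5, 963 and 713 (0.93 ± 0.14; edgeR adjusted p = 2.48e-05). For each of these, every Gata1 value was above every Spi1 value in low-endoderm wells, while over all gated wells all 3 overlapped through library 4 and none passed. Rab11a, of recycling endosomes, was called without library 1, 3 or 4 but not without library 2 (edgeR adjusted p = 0.0684), as was the kinase gene Taok3 (0.287). Ubash3b lost its call without library 1 (edgeR adjusted p = 0.121) or 2 (0.235), and Slain2, which binds microtubule ends, without library 1 (0.153) or 2 (0.134). Serinc3 lost it without library 2 (0.343) or 3 (0.0691), and Nrgn without library 2 (0.524); Nrgn was not tested without library 3.

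The 22 genes of the red cell list found in the tables summed to 558, 885, 2466 and 504 CPM in low-endoderm Gata1 wells and to 110, 227, 233 and 411 in Spi1 wells, without an overlap. In library 3, a globin-rich well described below held 0.724% of its transcripts from this list, beside a median of 0.0582% in low-endoderm Gata1 wells. With all gated wells the list had 407, 585, 1143 and 136 against 80.8, 227, 130 and 411, with an overlap through library 4. Members of the list differed in how many wells held them. Car2 was found in 20 of 20 Gata1 wells and 20 of 21 Spi1 wells, beside 57.2% of endoderm wells, Gfi1b in 18 and 11, Nfe2 in 16 and 12, and Smim1, which carries a red cell blood group, in 14 and 4, beside 33.2% of endoderm wells. Klf1, the factor of committed red cell precursors, was found in 1 of 20 Gata1 wells and in 0 of 21 Spi1 wells, which allows a share of wells with a transcript of up to 14.3% and sets no limit on expression below detection. Epor, the erythropoietin receptor, was found in 5 and 0, and Rhag in 3 and 0. Car2, carbonic anhydrase 2, had 85.8, 535, 868 and 151 CPM in low-endoderm Gata1 wells and 27.5, 192.5, 87.5 and 301 in Spi1 wells. The classes overlapped, and Car2 was called in the 3-well setting of libraries 2 and 3 only (2.42 ± 0.36; edgeR adjusted p = 3.15e-05). The heme list summed to 1395, 1013, 3312 and 857.5 CPM in low-endoderm Gata1 wells and to 888, 974, 797.5 and 904 in Spi1 wells. Its classes overlapped, and library 4 ran the other way. Of heme genes, Tmem14c, a mitochondrial carrier of the pathway, had 386, 244, 542 and 277 against 183, 159, 185 and 230, without an overlap, and missed the threshold (0.97 ± 0.27; edgeR adjusted p = 0.0505). Cpox, an enzyme of the same pathway, had 107, 175, 296 and 50.4 against 73.2, 45.3, 38.9 and 52.6, overlapping through library 4, and passed in the 3-well setting (2.58 ± 0.49; edgeR adjusted p = 0.000294).

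A single well held most of the globin transcripts. In library 3, the globin list was at 73280 CPM in low-endoderm Gata1 wells, beside 277 to 338 in the other libraries and 272 to 650 in Spi1 wells. One Gata1 well of that library held over 5% globin transcripts, the only such well of the 82, and all 8 Klf1 transcripts of the class were in 1 well of library 3. The globin-rich well held 3 of the 7 blood genes, 28.5% globin transcripts and 0.968% from the heme list. The median for the heme list was 0.0925% in low-endoderm Gata1 wells and 0.0927% in low-endoderm Spi1 wells. Values of red cell and heme genes given above for Gata1 wells of library 3 include this well. Without the globin-rich well, 43 genes were called in low-endoderm wells in place of 26, and all 26 were among them. Cited4, a transcriptional coactivator, had 21.5, 256, 528 and 126.1 in Gata1 wells and 0, 0, 0 and 14.4 in Spi1 wells, without an overlap. It held 101 transcripts against 3, which is 55.2 times as many per transcript sequenced (95% interval from counting alone, 18.4 to 272), and in all gated wells its log2 fold change was 3.95 ± 0.73 (edgeR adjusted p = 0.464).

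**Figure D4:**
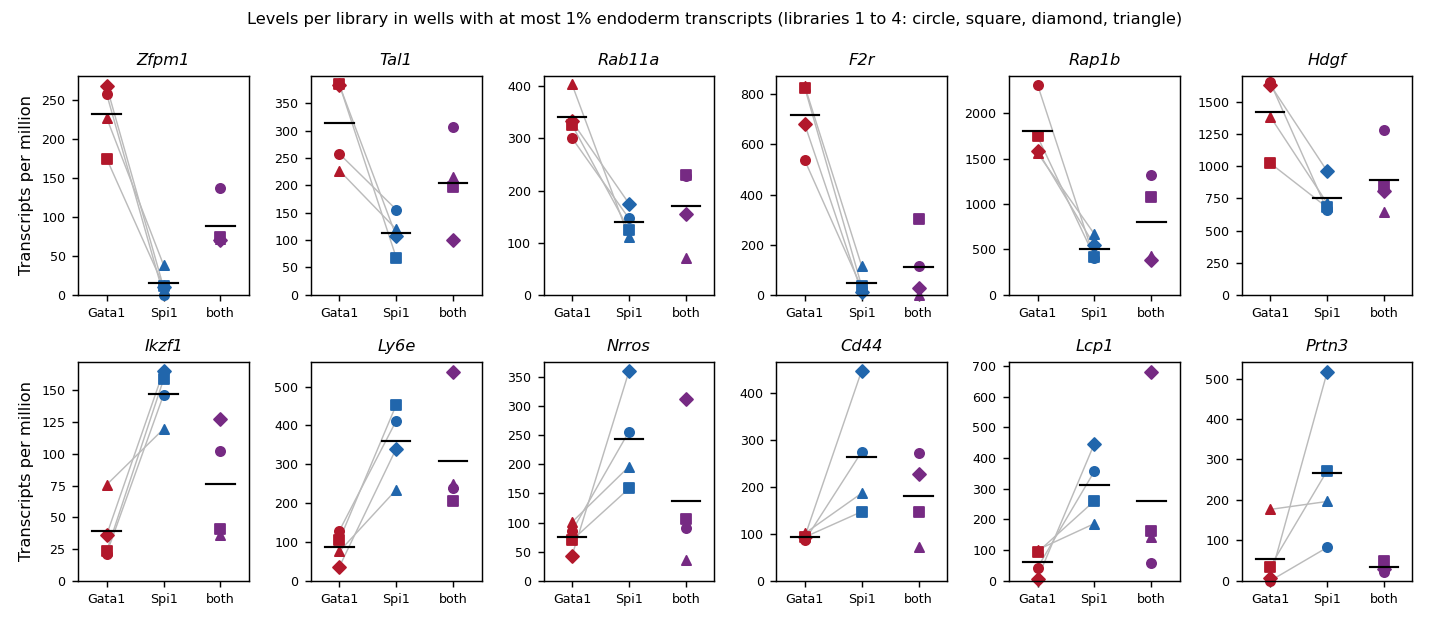
CPM of 12 genes in low-endoderm Gata1 wells, Spi1 wells and wells with both, 1 point per library (circle, square, diamond and triangle for libraries 1 to 4), with black bars at the mean of 4 libraries and grey lines joining both classes of a library. For the upper row, Zfpm1 to Hdgf, every Gata1 point lies above every Spi1 point; in the lower row Prtn3 is the gene whose classes overlap.

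Of the genes lower in Gata1 wells, those known from leukocytes come first, picked by their calls and not as a list. Ly6e, a surface protein of many immune cells, had 129, 105, 36.1 and 75.7 CPM in Gata1 wells and 412, 453, 340 and 234 in Spi1 wells (-2.20 ± 0.32; edgeR adjusted p = 8.76e-06). Its Spi1 values were above every Gata1 value. Ly6e over all gated wells stood at -2.43 ± 0.37 (edgeR adjusted p = 0.361), with an overlap between 156 in Gata1 wells of library 1 and 137 in Spi1 wells of library 3. Ikzf1, the factor Ikaros of lymphoid and myeloid precursors, had 21.5, 23.3, 36.1 and 75.7 against 146.5, 159, 165 and 120 (-1.99 ± 0.47; edgeR adjusted p = 0.0134). Ikzf1 did not overlap in either set of wells, but its adjusted p was 0.0589, 0.235 and 0.0954 without library 1, 2 or 3. Nrros, which holds latent TGF-beta at the surface of myeloid cells, had 85.8, 69.8, 43.4 and 101 against 256, 159, 360 and 196 (-1.82 ± 0.36; edgeR adjusted p = 0.00195, but 0.147 without library 3). Cd44, a hyaluronan receptor, ran from 85.8 to 101 in Gata1 wells and from 147 to 447 in Spi1 wells (-1.49 ± 0.33; edgeR adjusted p = 0.00658, but 0.285 without library 3).

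Lcp1 and Emb had quite other values with and without the wells over 1% endoderm. Lcp1, the actin bundler L-plastin of leukocytes, had 42.9, 93.1, 7.23 and 101 in low-endoderm Gata1 wells and 357, 260.5, 447 and 186.5 in Spi1 wells (-2.61 ± 0.51; edgeR adjusted p = 0.0210, but 0.114 without library 1). Over all gated wells Gata1 values were 47.9, 181, 172.5 and 437 and the log2 fold change was -0.18 ± 0.54. Emb, the adhesion protein embigin, had 215, 186, 86.8 and 101 in low-endoderm Gata1 wells and 769, 328, 311 and 363.5 in Spi1 wells (-1.51 ± 0.27; edgeR adjusted p = 0.000500). Over all gated wells it had the opposite sign (0.72 ± 0.63; edgeR adjusted p = 0.9997), with 1609 in Gata1 wells of library 4. It was called higher in Gata1 wells without the wells above 3 times the median total (1.004 ± 0.22; edgeR adjusted p = 0.0121). The direction of Emb therefore depends on which wells are kept.

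Among the other lower genes, Iqgap2, Tsc22d1, Slc6a6, B2m, Actg1 and Ncl had log2 fold changes from -1.55 to -0.46. Iqgap2 lost its call without library 2 (edgeR adjusted p = 0.235) or 3 (0.162), and Tsc22d1 without library 3 (0.257), while it was not tested without library 2. Slc6a6 and B2m were called without library 4 (0.000181 and 0.000517) but not without library 1, 2 or 3 (0.130 to 0.450). The actin gene Actg1 was called without library 4 only (0.0162), and Ncl, which encodes nucleolin, in no setting that leaves out 1 library (0.0678 to 0.168). Of the 26 genes, 7 kept the call without any one library (F2r, Zfpm1, Rap1b, Hdgf, Ly6e and Emb among them). In 19 of the 26 the low-endoderm libraries of both classes did not overlap, beside 5.68% of the 1689 genes (3.2% higher and 2.49% lower in Gata1 wells). Over all gated wells this held for 7 of the 26, beside 3.39% of the 4188 (1.07% higher and 2.32% lower). Of the 25 that were tested in all gated wells, 23 had the same direction there. The genes were called on these low-endoderm levels, and all gated wells include the low-endoderm wells. None of these shares is therefore independent of the calls.

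**Figure D5:**
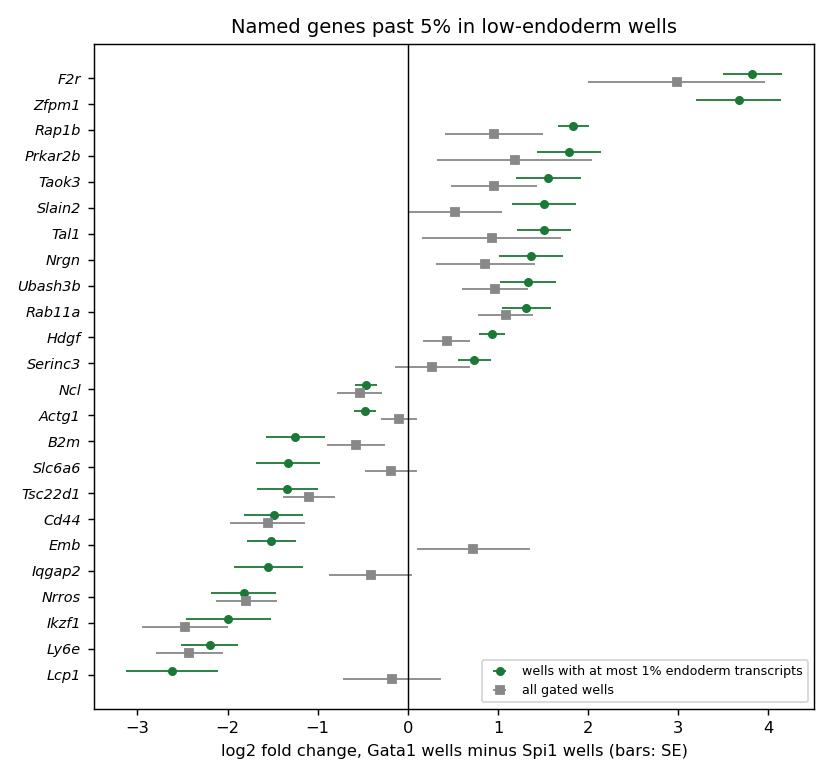
Log2 fold change of Gata1 wells minus Spi1 wells (bars are standard errors) for named genes past 5% in low-endoderm wells, beside the value in all gated wells. Emb changes sign between the settings, Lcp1 moves from -2.61 to -0.18, and Zfpm1 was not tested in all gated wells.

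Genes of granule proteins of early granulocytes and monocytes were lower in Gata1 wells where only libraries 2 and 3 carried the comparison. Mpo, myeloperoxidase, had 64.4, 11.6, 14.5 and 50.4 CPM in low-endoderm Gata1 wells and 0, 238, 477 and 129 in Spi1 wells. Library 1 held no Mpo transcript in low-endoderm Spi1 wells and ran the other way. In all gated wells Mpo was at -3.78 ± 0.45 (unadjusted p = 6.54e-05, edgeR adjusted p = 0.274), and in the 3-well setting of libraries 2 and 3 at -4.63 ± 0.55 (edgeR adjusted p = 4.68e-09). Prtn3, proteinase 3, had 0, 34.9, 7.23 and 176.5 in Gata1 wells and 82.4, 272, 515.5 and 196 in Spi1 wells. It was lower in Gata1 wells of each library and passed in the 3-well setting (-4.34 ± 0.50; edgeR adjusted p = 1.96e-09), but not with all 4 libraries (-2.89 ± 0.83; edgeR adjusted p = 0.233). Prtn3 was found in 7 of 20 Gata1 wells and 17 of 21 Spi1 wells, and Mpo in 8 and 14.

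The list as a whole summed to 408, 303, 195 and 555 in low-endoderm Gata1 wells and to 613, 861, 1819 and 713 in Spi1 wells, without an overlap. With all gated wells it had 312, 223, 167 and 259 against 411, 861, 613 and 713, again without an overlap. Of its 22 genes in the tables, 6 were tested in all gated wells, 0 were called, 5 had a negative log2 fold change, and the median was -2.25 beside 0.0073 over all genes. Ncf1, a subunit of the phagocyte oxidase, had 21.5, 0, 0 and 75.7 against 119, 67.95, 331 and 95.7 in low-endoderm wells and was tested only in all gated wells (-2.89 ± 0.54; edgeR adjusted p = 0.464). Alox5ap, which serves leukotriene synthesis, had 50.6 to 101 against 139 to 204 without an overlap (-1.20 ± 0.38; edgeR adjusted p = 0.100). The oxidase gene Cyba overlapped between the classes. Elane, of the same granules, held 0 transcripts in Gata1 wells and 1 in Spi1 wells.

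Myeloid transcription factors were sparse. Cebpb had 21.5, 0, 0 and 126.1 in low-endoderm Gata1 wells and 128, 113, 165 and 167 in Spi1 wells. It was lower in Gata1 wells of each library, overlapped through library 4, and missed the threshold with all 4 libraries (-2.62 ± 0.68; edgeR adjusted p = 0.0579). Cebpa, which drives the granulocyte side, held 2 transcripts in Gata1 wells and 6 in Spi1 wells, or 0.547 times as many per transcript sequenced (95% interval from counting alone, 0.0540 to 3.06). Irf8, of monocytes, had 201 and 107 in Spi1 wells of libraries 1 and 3 but 11.3 and 14.4 in libraries 2 and 4, within the range of Gata1 wells (0 to 50.4). Maf and Id2 overlapped between the classes. Of receptors, Csf1r held 40 transcripts in low-endoderm Spi1 wells, with 275 CPM in library 1 and at most 33.5 elsewhere, against 1 in Gata1 wells. The macrophage list stood at 1447 in Spi1 wells of library 1, where 1 of the 2 low-endoderm wells held it at 0.270% of transcripts, and at 45.3 to 110 in the other libraries.

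Of 12 genes of the leukocyte surface list, 1 was tested in low-endoderm wells and called lower (Cd44). Of 12 genes of the list of blood cell actin regulators, 3 were tested and 1 was called lower (Lcp1), at a median of -0.85. Of 22 early progenitor genes, 4 were tested, with 1 called higher (Tal1) and 1 lower (Ikzf1), at a median of -0.19. The lists summed to 203 to 322 CPM in low-endoderm Gata1 wells and 421 to 992 in Spi1 wells for the leukocyte surface, and to 593 to 908 and 1076 to 1644 for actin, each without an overlap, while the progenitor list overlapped (1034 to 1897 and 824 to 1674). Ptprc held 0 transcripts in low-endoderm Gata1 wells and 28 in Spi1 wells (91.6, 45.3, 97.3 and 19.1 CPM), at least 5.69-fold higher with 3 transcripts set for the class at 0. Itgam, which encodes CD11b, held 0 and 12, at least 2.44-fold higher on the same floor. Cd34 had 64.4, 69.8, 21.7 and 227 in Gata1 wells and 73.2, 125, 370 and 296.5 in Spi1 wells, higher in Spi1 wells of each library but with an overlap. It was at -2.44 ± 0.36 in all gated wells (edgeR adjusted p = 0.361) and passed in the 3-well setting (-2.53 ± 0.50; edgeR adjusted p = 0.00128). Kit had 21.5, 69.8, 86.8 and 50.4 in Gata1 wells and 18.3, 147, 136 and 143.5 in Spi1 wells, an overlap through library 1, and did not pass (-1.56 ± 0.58 in all gated wells; edgeR adjusted p = 0.9997). Ptpn6, the phosphatase SHP-1 of blood cells, did not overlap (42.9 to 151 against 167 to 253) and did not pass (-1.12 ± 0.35; edgeR adjusted p = 0.0931).

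No gene of S phase or of mitosis passed between the classes, while a D-type cyclin and its kinase passed in the 3-well setting only. Ccnd2, cyclin D2, had 64.4, 23.3, 152 and 202 in low-endoderm Gata1 wells and 1025, 442, 428 and 292 in Spi1 wells. It did not overlap there or in all gated wells, where it had 120, 51.8, 86.2 and 63.7 against 711.5, 442, 290 and 292. It passed in the 3-well setting (-2.08 ± 0.43; edgeR adjusted p = 0.0136) but neither in all gated wells (-2.23 ± 0.35; edgeR adjusted p = 0.361) nor in low-endoderm wells with all 4 libraries (-2.16 ± 0.56; edgeR adjusted p = 0.178). Cdk6, a partner kinase of D-type cyclins, passed there too (-1.27, edgeR adjusted p = 0.0187), although library 1 ran the other way with 472 in Gata1 wells and 128 in Spi1 wells. Of S phase genes, 18 were tested in all gated wells and 14 in low-endoderm wells, and of genes of G2 and mitosis 19 and 14, with 0 called in either. Their medians in low-endoderm wells were 0.18 and 0.035 beside 0.0060 over all genes. Of genes of ribosome production, 13 were tested in low-endoderm wells and Ncl alone was called, lower in Gata1 wells.

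No gene passed between wells with both transcripts and either single class. Only libraries 2 and 3 held 3 or more such wells, and in 1 fit of all classes edgeR called 0 of 5732 genes against Gata1 wells (0%; 120, or 2.09%, at an unadjusted p under 0.05) and 0 against Spi1 wells (0%; 109, or 1.9%). Both comparisons share the wells with both. In a fit of only the classes compared, 9 genes were called against Gata1 wells (3 higher and 6 lower) and 0 against Spi1 wells. Without library 4, 4 genes were called against Spi1 wells. With so few wells a p that misses the threshold does not show that the classes are alike.

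The levels in wells with both are given beside those of the single classes, for low-endoderm wells and libraries 1 to 4. These libraries held 2, 5, 2 and 1 low-endoderm wells with both, so the values rest on few wells. F2r had 114, 303, 28.3 and 0 CPM, lower than in Gata1 wells of each library (log2 fold change -1.12 ± 0.83 against Gata1 wells and 2.08 ± 1.02 against Spi1 wells over all gated wells; edgeR adjusted p = 0.9997 each). Zfpm1 had 136, 73.8, 70.8 and 71.5, below every Gata1 value and above every Spi1 value. Tal1, with 307, 197, 99.2 and 214, lay within the range of Gata1 wells in library 1 only. Prtn3 had 22.7, 49.2, 28.3 and 35.7, which was under every Spi1 value, and Mpo had 28.3 to 147.5. Ly6e, with 239, 205, 538 and 250, was above every Gata1 value. These are values only, with no test of them in low-endoderm wells beyond the fit of all classes, which called 0 of 1905 genes in either comparison.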

How the data were processed

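The data were single-cell transcript tables of the mouse yolk sac. The authors deposited estimated counts of transcripts, by gene and well. No header names the unit, and an automatic unit check could not read the layout, so it was entered as another unit. Per the values, 100% of entries return a whole number of identifiers (tolerance 1e-06) when a correction for collisions among 4096 identifiers is undone. BWA 0.6.2-r126 and Seurat are named in the submitters' processing notes. The genome build is not given in the sources used here. The same well barcodes served every library, and 0 wells held identical values in 2 libraries. No caller for doublets was run, since cells were sorted by well.

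Estimated counts were summed per library and class and rounded. They were tested with edgeR 4.0.16 (robust quasi-likelihood fit, TMM, filterByExpr) in R 4.3.3, with DESeq2 1.42.0 beside it, without the 11 genes of the gate. A standard error is the size of the log2 fold change over the square root of the F statistic. Both classes of a library share that library, so library was the block. On simulated counts of 4331 genes, all gated wells recovered 10% of 2-fold and 80% of 4-fold changes, with 8 false calls. For low-endoderm wells (1787 genes) it was 70% and 100%, with 4 false calls. The simulation gave all genes 1 dispersion (0.0877 and 0.0217 in the 2 sets of wells) and no difference between libraries. These shares may thus be too high for the real sums, and they set no limit on the changes missed. For all gated wells 100% of simulated 8-fold changes were recovered, yet F2r, at a log2 fold change of 2.98, was not called in the real sums.

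The named genes are up to 15 each way past 5% with at least 50 CPM and one direction in all libraries, tested members of 5 lists, and members of the other lists by p. That rule named 0 genes in all gated wells and 12 higher and 10 lower in low-endoderm wells; a mitochondrial gene was not named. The other 3 of these 26 genes, the genes found by wells, and Cited4 were chosen after their values were seen. Of 24 lists, those not printed had 0 called genes. Members and lists were chosen with earlier results of these data known. Promoter letters are from RefSeq. Some genes that the rule names are not reported here.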

Additional observations from a re-analysis of the deposited data

Results flagged for a closer look

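In 20 of 178 groups of 4 libraries looked at, 1 library of low-endoderm wells stood far from the other 3, where chance flags about 1 in 20, a rate that need not hold for groups with several values of 0. The Gata1 sums of libraries 1 and 4 hold 1 and 2 such wells and the Spi1 sum of library 1 holds 2. In Gata1 wells these were, in CPM, the globin list (73280), Klf1 (57.8) and Fech (304) in library 3, Cebpa (50.4) and Cebpb (126.1) in library 4, Slain2 (322), Cdk6 (472) and Tnfrsf1a (85.8) in library 1, and Csf1r (7.23) in library 3. Each was the highest of its 4 libraries. In Spi1 wells the high values of library 1 were the macrophage list (1447), Maf (504), Csf1r (275), Emb (769) and the mast cell list (9.16). The mesenchyme list (2831) was high in library 2, Treml1 (9.73) in library 3 and Cited4 (14.4) in library 4. Low values, all in library 1, were Kit (18.3), Cdk6 (128) and Itgb3 (0).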

How the results depend on the processing

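Both classes come from the same libraries, so library was the block; with no replicate block 3 genes were called in place of 0 in all gated wells, and 17 in place of 26 in low-endoderm wells. In all gated wells, leaving out 1 library gave 0 to 294 calls (0 to 24 with sums of any number of wells), no filter on low counts 19, leaving out deep wells 191, leaving out wells over 1% endoderm 55, and thinning with sums of any number of wells 3. The count stayed at 0 with DESeq2 size factors or its Wald test, other limits on the total, 5 of the 7 blood genes, all classes in 1 fit, or without the globin well. With sums of any number of low-endoderm wells, all chosen after seeing the data, 26 genes were called, 26 with DESeq2 size factors, 11 with its Wald test, 43 without the globin well, 1 when thinned and 12 to 62 without 1 library. Wells with both gave 9 calls against Gata1 wells in a fit of 2 classes, and 0 to 4 against Spi1 wells without 1 library. The count of wells with both went from 12 to 1 with classes set on 5000 transcripts. Of 1676 pairs of a named gene and a setting, 1301 kept direction and side of the threshold, 74 changed sign with no call in either, 287 gained a call, 5 lost it (all Zfpm1, which is set against its low-endoderm value) and 9 reversed with a call. All 9 were Emb: -1.26 and -1.51 without wells over 1% endoderm (sums of 3 or more and of any number), -1.47 also without globin, -1.515 with DESeq2 size factors, -1.61 with no block, and -1.77 to -1.394 without 1 library. Over all gated wells Emb stood at -0.12 to 1.68 without 1 library, and was called without library 3. The cause of these changes was not tested. Classes set again after thinning, or on 2 or more transcripts, could not be fitted, since the sums of 3 wells left no residual degrees of freedom. Few wells per sum and single Gata1 or Spi1 transcripts limit every value.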
